A study of Mus musculus with 2 samples.

Results

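The genes described here encode the protein-conducting channel of the endoplasmic reticulum (ER) and the complex that sits beside it. There are 9 of them among the 55357 genes of the deposited tables, chosen by symbol: Sec61a1, Sec61b, Sec61g, Sec62, Sec63, Ssr1, Ssr2, Ssr3 and Ssr4. All 9 were found in both tables. Members were matched by symbol alone, but Sec61g had already been singled out from these same libraries, so its difference between them is a description and not independent evidence.

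Secreted and membrane proteins enter the ER through the Sec61 translocon. Its alpha subunit (Sec61a1) forms the pore, the small beta subunit (Sec61b) and the small gamma subunit (Sec61g) bind it, and Sec62 and Sec63 assist the entry of some precursors and recruit the luminal chaperone BiP. The signal sequence receptor, also called the translocon-associated protein complex, is made of an alpha (Ssr1), a beta (Ssr2), a gamma (Ssr3) and a delta (Ssr4) subunit and helps particular signal sequences to open the channel. In the gut the heaviest users of this machinery are goblet cells, which export mucins, and plasma cells, which export antibodies.

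The cells came from small intestinal tissue of 8-week-old male mice, pooled before capture, and gave 1 library per genotype. Mice labelled adip fl/fl carry floxed alleles of the adiponectin gene and no Cre. Their littermates, adip fl/fl-Villi-Cre, carry the same floxed alleles and a Cre recombinase driven by the villin promoter, which is active in intestinal epithelial cells and not in lymphocytes or macrophages. With 1 library per genotype no test between genotypes is possible, no p-value is given, genotype and library cannot be told apart, and every interval below is a 95% interval for counting error only.

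Transcripts were captured at their 3′ ends in droplets with the 10x Genomics kit and counted as unique molecular identifiers (UMIs). Barcodes with more than 500 genes and under 25% UMIs of mitochondrial (mt-) genes were kept, which left 3069 of 9791 barcodes (25687687 UMIs) for adip fl/fl and 5555 of 11838 (48895126 UMIs) for adip fl/fl-Villi-Cre, with medians of 4838 and 4749 UMIs per cell. The libraries shared 31 barcodes in all and 3 among the kept cells. Adipoq, the targeted gene, had 0 UMIs in the kept cells of both libraries, which allows up to 0.117 and 0.0614 UMIs per 1000000, so it could not check the labels. Levels are given as CPM, the UMIs that a gene has in all cells of a class per 1000000 UMIs of that class. Clusters were named from marker genes, with the 9 genes kept out of the clustering, and gave 12 classes: stem-like, transit-amplifying (TA)-like, villus bottom-like, mid-villus-like, villus tip-like, goblet-like, tuft-like, enteroendocrine-like, T cell-like, cycling T cell-like, plasma-like and myeloid-like. Crypt-like cells are the stem-like and TA-like cells together (86 and 226 cells). No Paneth-like cluster was found, and the goblet-like cluster held 8 of the 9 Paneth markers.

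Sec61g is shown first, because its coding sequence also occurs elsewhere in the genome. The gene (ENSMUSG00000078974) lies on the minus strand at chr11:16500530-16508484 of the mouse genome (GRCm38, GENCODE M21). Its coding sequence of 207 bases, 68 codons before the stop, is printed with the 4 bases around each of its 2 exon junctions in capitals, 2 bases on each side.

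Sec61g coding sequence: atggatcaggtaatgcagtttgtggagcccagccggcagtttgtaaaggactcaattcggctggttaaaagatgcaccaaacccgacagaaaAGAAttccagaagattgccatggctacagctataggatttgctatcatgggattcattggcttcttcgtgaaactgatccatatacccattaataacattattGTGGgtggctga

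The whole run occurs unbroken in Gm10177, a processed pseudogene of 1 exon and 444 bases on the plus strand at chr9:37252922-37253365. The identity extends to 420 bases in all. In 3 of the 5 coding transcripts of Sec61g it reaches the 3′ end, while 251 and 1108 bases follow it in the other 2. A read that lies wholly in the shared stretch has the same bases at both loci. How such reads were placed or dropped is not given in the sources used here. The level of Sec61g is uncertain to that extent. In all, 9 other annotated genes matched Sec61g at 90% identity or more over at least 90 bases. Sec61b had 3 such matches and Ssr1 14, while Sec61a1, Sec62, Sec63, Ssr2, Ssr3 and Ssr4 had 0.

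RefSeq gives the 250 bases before the start of 7 of the 9 genes (GRCm38.p6), and 3 of these promoters are shown because Sec61g, Ssr3 and Ssr1 differ in the motifs they hold. Searched on both strands were CCAAT, the box bound by NF-Y, and CCACGT, part of the ER stress response elements and able to overlap the E-box CACGTG. Capitals mark the matches.

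Sec61g, chr11:16508485-16508734, minus strand: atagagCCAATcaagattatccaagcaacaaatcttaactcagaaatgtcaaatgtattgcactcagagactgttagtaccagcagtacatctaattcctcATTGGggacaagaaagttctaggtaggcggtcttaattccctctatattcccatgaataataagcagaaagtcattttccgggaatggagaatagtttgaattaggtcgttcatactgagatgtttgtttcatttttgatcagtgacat

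Ssr3, chr3:65392554-65392803, minus strand: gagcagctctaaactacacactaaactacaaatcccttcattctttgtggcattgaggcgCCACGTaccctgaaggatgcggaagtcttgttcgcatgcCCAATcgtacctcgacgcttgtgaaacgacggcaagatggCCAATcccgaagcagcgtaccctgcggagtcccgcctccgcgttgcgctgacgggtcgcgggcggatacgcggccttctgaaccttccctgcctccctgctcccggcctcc

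Ssr1, chr13:37994209-37994458, minus strand: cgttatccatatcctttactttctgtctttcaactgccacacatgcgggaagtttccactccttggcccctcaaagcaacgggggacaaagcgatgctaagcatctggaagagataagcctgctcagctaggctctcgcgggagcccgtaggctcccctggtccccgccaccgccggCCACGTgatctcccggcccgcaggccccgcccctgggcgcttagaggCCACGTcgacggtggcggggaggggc

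Sec61g held CCAAT 244 bases before the start and, on the opposite strand, at 149 bases, and no CCACGT. Ssr3 held CCACGT at 190 bases and CCAAT at 151 and 111 bases, and Ssr1 held CCACGT at 73 and 26 bases. Among all 32851 promoters of this length, 33.8% held CCAAT, 6.91% held CCACGT and 2.25% held both. Of the 7 promoters, 3 held CCAAT (Sec61g, Sec63 and Ssr3), 3 held CCACGT (Sec63, Ssr1 and Ssr3) and 2 held both.

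The first question was how the genes are distributed over the cells. Summed over the 9 genes, plasma-like cells stood highest and villus tip-like cells lowest in both libraries. Plasma-like cells held 5864 CPM (5432 to 6322) in adip fl/fl and 5935 CPM (5601 to 6283) in adip fl/fl-Villi-Cre. Crypt-like cells held 2083 CPM (2026 to 2142) and 2164 CPM (2126 to 2203). Goblet-like cells, another secretory class, held 1317 CPM (1266 to 1370) and 1596 CPM (1555 to 1637). The gap between crypt-like and goblet-like cells depended on the denominator. In goblet-like cells 7 goblet markers took 32.6% and 26.8% of the UMIs. These markers were left out of every total, an alternative chosen after the data were seen. Goblet-like cells then held 1954 CPM (1879 to 2033) and 2179 CPM (2124 to 2236). Crypt-like cells held 2088 CPM (2030 to 2147) and 2173 CPM (2135 to 2212). The intervals of the classes overlapped in both libraries, but in adip fl/fl only at their ends, and such an overlap does not show equal levels. Ribosomal protein genes stayed in these totals. They took 16.0% and 15.8% of the UMIs of crypt-like cells against 2.07% and 2.24% in goblet-like cells. The absorptive classes ran from 1704 and 1859 CPM in villus bottom-like cells through 667 and 782 CPM in mid-villus-like cells to 305 CPM (282 to 329) and 351 CPM (336 to 366) in villus tip-like cells.

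In adip fl/fl the order began with plasma-like cells, a step of their own, and then TA-like (2122 CPM) and stem-like cells (2033 CPM). The next step held myeloid-like (1788 CPM), cycling T cell-like (1728 CPM) and villus bottom-like cells. After it came a step of T cell-like (1348 CPM), goblet-like, enteroendocrine-like (1249 CPM) and tuft-like cells (1226 CPM). Then came mid-villus-like cells, and last villus tip-like cells. Within each of these steps the interval of a class overlapped that of its neighbour, and between steps, including the last pair, it did not. In adip fl/fl-Villi-Cre the classes from stem-like (2197 CPM) over TA-like (2133 CPM), myeloid-like (2052 CPM) and villus bottom-like to cycling T cell-like cells (1832 CPM) formed 1 run of overlapping neighbours, and goblet-like, enteroendocrine-like (1465 CPM), tuft-like (1430 CPM) and T cell-like cells (1424 CPM) another.

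**Figure D1:**
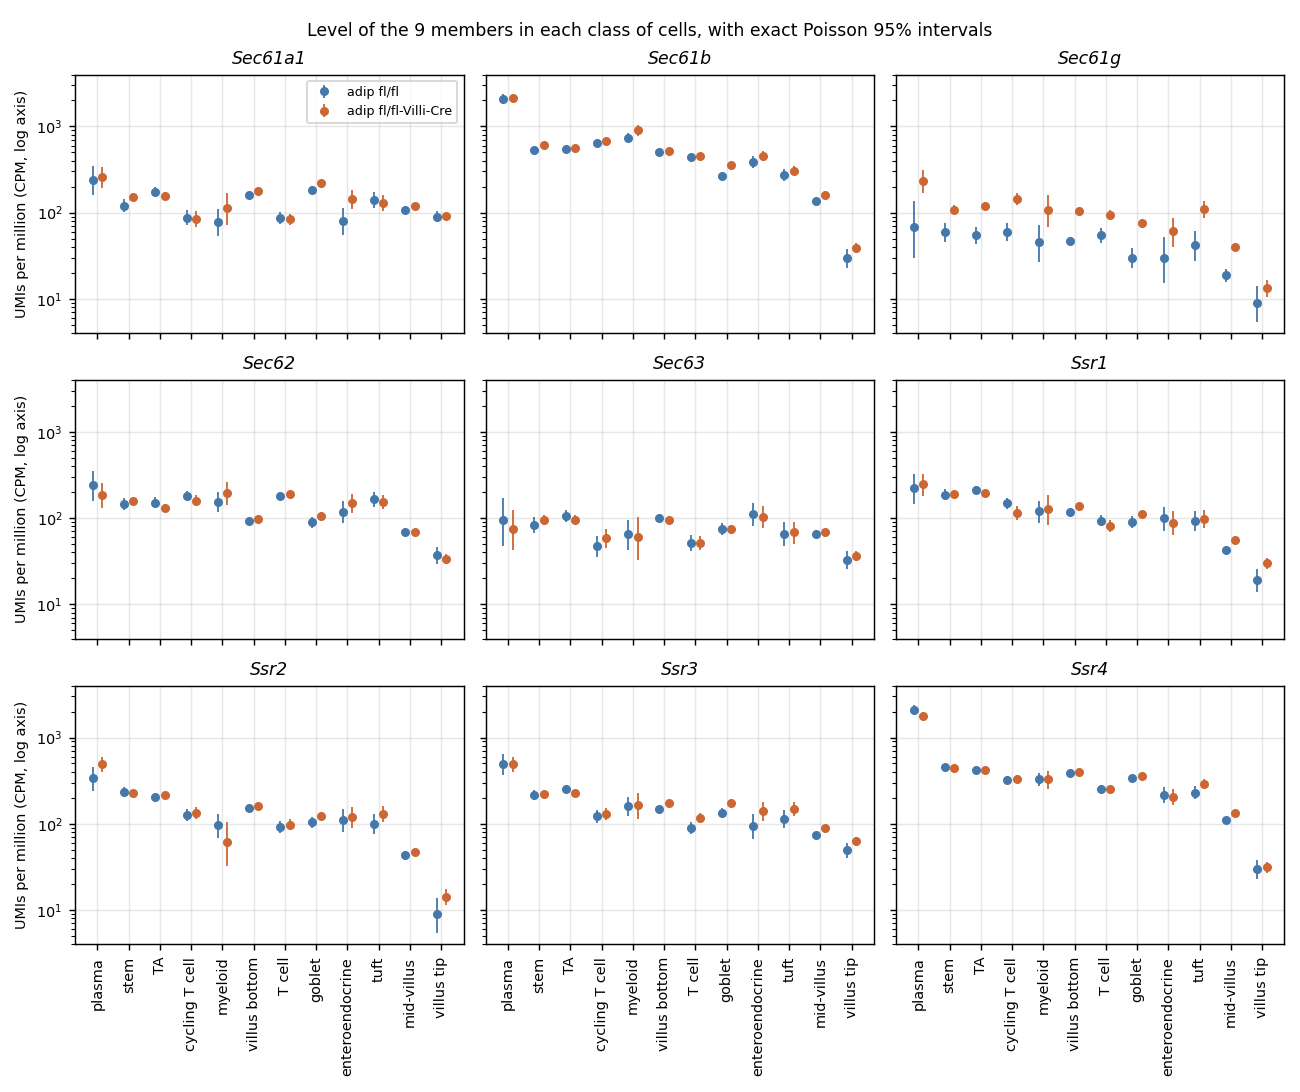
Level of each of the 9 genes in the 12 classes of both libraries, in CPM on a log axis, with points for the summed level of a class and bars for exact Poisson 95% intervals. Plasma-like cells sit at the top for Sec61b and Ssr4 (2093 and 2075 CPM in adip fl/fl), and villus tip-like cells at the bottom for both genes.

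Relative to villus tip-like cells, the 9-gene level was 19.2-fold higher in plasma-like cells (17.2 to 21.4), 6.83-fold in crypt-like cells (6.29 to 7.42) and 4.32-fold in goblet-like cells (3.96 to 4.71) of adip fl/fl. In adip fl/fl-Villi-Cre these folds were 16.9 (15.7 to 18.2), 6.16 (5.88 to 6.46) and 4.55 (4.32 to 4.78). With the goblet markers out of the total the goblet-like folds were 6.40 and 6.20. A gene was counted as past the fold when it differed at least 1.5-fold, with at least 50 CPM in the higher group and at least 20 UMIs over both. In goblet-like cells of adip fl/fl all 8 genes that met these minimums were past the fold, where 36.2% of all genes tested were, and Sec61g did not reach 50 CPM. In goblet-like cells of adip fl/fl-Villi-Cre all 9 were, beside 38.6% of all genes. All 9 were past it in plasma-like cells of both libraries (31.1% and 35.6% of all genes) and in crypt-like cells of both (59.9% and 58.4%), so in crypt-like cells more than 1 gene in 2 shared that direction. In villus tip-like cells only Sec61a1 reached 50 CPM in adip fl/fl, and only Sec61a1 and Ssr3 in adip fl/fl-Villi-Cre. The rest met the minimum only through the class where they were high. These counts are therefore no separate evidence for the class difference.

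The size of the class difference varied widely among the genes. Sec61a1, the pore subunit, had a narrow range. It was at 241 CPM (160 to 348) and 257 CPM (191 to 337) in plasma-like cells, 182 CPM and 218 CPM in goblet-like cells, 151 CPM and 154 CPM in crypt-like cells and 89.4 CPM and 91.1 CPM in villus tip-like cells of adip fl/fl and adip fl/fl-Villi-Cre. This made 2.70 and 2.82-fold for plasma-like cells over villus tip-like cells, where Sec63, an accessory subunit, had 2.89 and 2.08-fold.

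Sec61b, the beta subunit, spanned a far wider range. It had 2093 CPM (1838 to 2373) and 2158 CPM (1958 to 2372) in plasma-like cells but 29.5 CPM (22.7 to 37.7) and 38.7 CPM (33.9 to 44.0) in villus tip-like cells, or 71.0 and 55.7-fold. In goblet-like cells it had 268 CPM and 359 CPM, and in crypt-like cells 543 CPM and 585 CPM.

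Sec62 and Sec63 also had narrower ranges than Sec61b. Sec62 was at 241 and 186 CPM in plasma-like cells, 150 and 146 CPM in crypt-like cells, 89.7 and 107 CPM in goblet-like cells and 37.4 and 33.8 CPM in villus tip-like cells. Sec63 was at 94.7 and 75.4 CPM in plasma-like cells, where it rested on 11 and 15 UMIs, at 96.3 and 95.6 CPM in crypt-like cells, 75.5 and 73.9 CPM in goblet-like cells and 32.8 and 36.2 CPM in villus tip-like cells. Its level in plasma-like and crypt-like cells overlapped in counting error.

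Of the signal sequence receptor, Ssr4 was the subunit with the widest range. It had 2075 CPM (1822 to 2355) and 1801 CPM (1619 to 1997) in plasma-like cells against 29.9 and 31.4 CPM in villus tip-like cells, 69.3 and 57.3-fold. Ssr2 had 336 CPM (239 to 459) and 488 CPM (396 to 595) in plasma-like cells against 8.89 and 14.1 CPM in villus tip-like cells, 37.8 and 34.5-fold. In crypt-like cells Ssr2 was 24.4 and 15.7-fold over the villus tip-like cells, above Sec61b (18.4 and 15.1-fold) and Ssr4 (14.4 and 13.7-fold). Ssr3 went from 491 and 493 CPM in plasma-like cells to 49.1 and 62.5 CPM in villus tip-like cells, and Ssr1 from 224 and 246 CPM to 19.2 and 29.9 CPM. Subunits of 1 complex thus differed in how far their transcript levels spread over the classes.

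The mid-villus-like class is mixed. Of its 4 clusters, 1 (364 and 552 cells) held 3 of the 10 middle markers and 5 of the 10 tip markers, and 1 (390 and 490 cells) held 3 of each. Their 9-gene levels were 346 and 416 CPM and 452 and 480 CPM. The other 2 clusters, with 5 and 8 middle markers and 0 tip markers, were at 525 and 632 CPM and at 968 and 1080 CPM, and the 2 villus tip-like clusters at 351 and 395 CPM and at 246 and 288 CPM. The first of these mixed clusters thus overlapped a villus tip-like cluster in level, and Sec61g was higher in adip fl/fl-Villi-Cre in all 4, by 1.87 to 2.93-fold.

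The plasma-like values rest on 7 and 16 cells. Per cell, the 9 genes took a median of 51.0 of 10000 UMIs in adip fl/fl (22.1 to 81.1) and 57.7 in adip fl/fl-Villi-Cre (35.6 to 99.7), so no cell of the class fell near the villus tip-like level. Immunoglobulin genes made up 48.4% and 44.1% of the UMIs of plasma-like cells, and with these left out of the total, an alternative chosen after the data were seen, the folds over villus tip-like cells were 37.2 and 30.2. Villus tip-like cells in turn had 18.8% and 18.9% mt- UMIs. With cells limited to 10% mt- UMIs the plasma-like folds were 10.1 and 7.85 and the goblet-like folds 2.73 and 2.50, with 28 and 64 villus tip-like cells left.

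Across the 24 points of class and library, the Pearson correlation of log2(CPM + 10) between pairs of the genes was highest for Ssr1 and Ssr2 (0.95), Sec61b and Ssr4 (0.94), Ssr2 and Ssr4 (0.94) and Ssr3 and Ssr4 (0.93), and lowest for Sec61a1 and Sec62 (0.19). The points share libraries, depth and cells of related classes, and the values are a description. Genes whose levels followed Sec61g closely among 3276 genes were Gm10076 (0.94), Tmem258 (0.84), Lman2 (0.84) and Dpm3 (0.84). Tmem258 encodes an oligosaccharyltransferase subunit, Lman2 a cargo lectin and Dpm3 a subunit of dolichol-phosphate mannose synthase. Of the other 8 genes Sec61b came highest, at 0.79 and rank 14, and Sec61a1 and Sec63 lowest, at 0.39 (rank 1009) and 0.36 (rank 1084).

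The next question was whether Sec61g differs between the libraries alone or with its partners. In crypt-like cells it had 136 UMIs, 56.9 CPM (47.8 to 67.4), in adip fl/fl and 646 UMIs, 114 CPM (106 to 124), in adip fl/fl-Villi-Cre. The intervals of the libraries lay apart, with a fold of 2.01 (1.67 to 2.43). The other 8 genes summed to 2026 CPM (1970 to 2084) and 2050 CPM (2013 to 2088), a fold of 1.01 (0.98 to 1.05). Sec61g was the only 1 of the 9 past the fold in crypt-like cells, where 1.34% of all genes were higher past it in adip fl/fl-Villi-Cre and 0.547% lower. For every 100 UMIs of the other 8 genes there were 2.81 of Sec61g in adip fl/fl and 5.58 in adip fl/fl-Villi-Cre.

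Stem-like and TA-like cells showed the same picture apart. The stem-like cluster also held 6 of the 9 Paneth markers, 12 cycling markers and 5 fibroblast and muscle markers. In stem-like cells Paneth markers went from 85.9 to 790 CPM and fibroblast and muscle markers from 0 to 239 CPM. The part of these transcripts was not tested. Among stem-like cells Sec61g stood at 59.8 CPM in adip fl/fl and 109 CPM in adip fl/fl-Villi-Cre, 1.81-fold (1.38 to 2.43). Among TA-like cells it stood at 54.7 and 120 CPM, 2.19-fold (1.70 to 2.86). The other 8 genes were at 1.06-fold (1.01 to 1.11) and 0.97-fold (0.93 to 1.02). Again only Sec61g was past the fold, beside 1.57% of all genes in stem-like and 1.72% in TA-like cells. Of its partners, Sec61a1 stood at 121 and 152 CPM in stem-like cells, 1.26-fold (1.03 to 1.55), and at 174 and 156 CPM in TA-like cells.

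**Figure D2:**
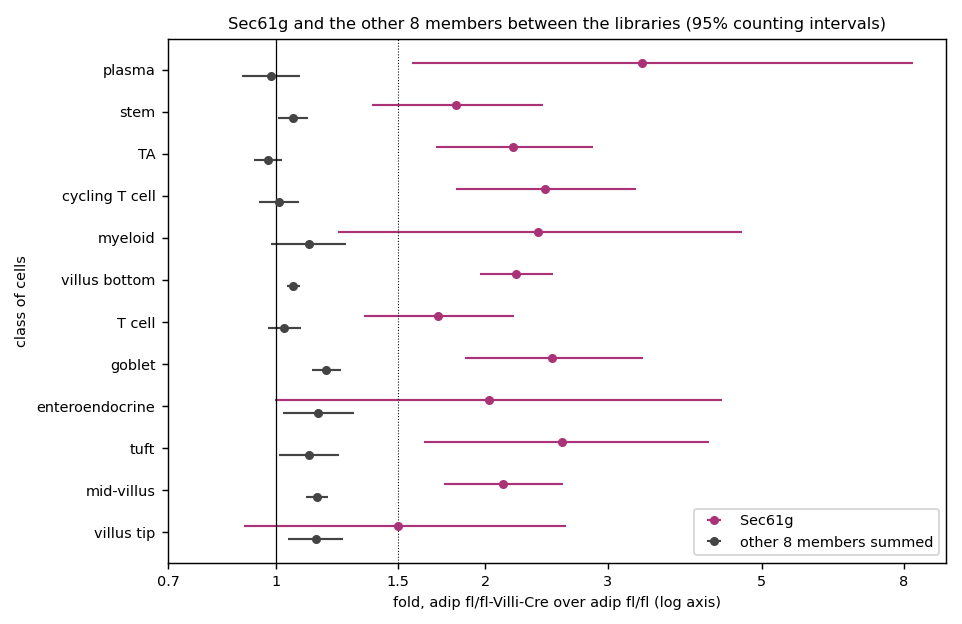
Fold of adip fl/fl-Villi-Cre over adip fl/fl by class on a log axis, for Sec61g and for the other 8 genes summed, with 95% intervals. Sec61g lies between 1.5 in villus tip-like cells and 3.36 in plasma-like cells, and the other 8 lie between 0.97 and 1.18.

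Along the villus the libraries differed in Sec61g beyond counting error in the bottom and middle classes. At the tip the interval held 1 and also the folds of those 2 classes, so no difference between the zones is shown. In villus bottom-like cells Sec61g had 46.7 CPM (41.7 to 52.0) and 103 CPM (98.3 to 109), a fold of 2.22 (1.96 to 2.50), beside 1.06 (1.04 to 1.08) for the other 8. It was the only 1 of the 9 past the fold, with 0.859% of all genes. It met the minimum of 50 CPM there only in adip fl/fl-Villi-Cre. In mid-villus-like cells it had 18.9 and 40.1 CPM, a fold of 2.12 (1.74 to 2.59), which stayed under the minimum of 50 CPM. Its partners together were at 1.14-fold (1.10 to 1.19), with Ssr1 at 1.30, Ssr3 and Ssr4 at 1.21 each and Sec61b at 1.17-fold. Of the 7 genes tested there 0 were past the fold, beside 1.03% of all genes. In villus tip-like cells it had 8.89 CPM (5.35 to 13.9) and 13.3 CPM (10.5 to 16.6), from 19 and 80 UMIs. The fold of 1.5 (0.90 to 2.61) did not exceed the counting error, and with cells limited to 10% mt- UMIs it was 0.87, with few cells of this class left. Ssr1 stood at 19.2 and 29.9 CPM there, 1.56-fold (1.11 to 2.25), Ssr2 at 8.89 and 14.1 CPM, 1.59-fold (0.96 to 2.77), and the other 8 genes together at 1.14-fold (1.04 to 1.25). Of the 2 genes tested in that class 0 were past the fold, beside 2.52% of all genes.

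Goblet-like cells had 30.1 CPM (22.8 to 39.0) of Sec61g in adip fl/fl and 75.0 CPM (66.4 to 84.4) in adip fl/fl-Villi-Cre, a fold of 2.49 (1.87 to 3.38). Here the partners were higher too, by less. Sec61b was at 1.34-fold (1.21 to 1.49), Ssr3 at 1.29-fold (1.11 to 1.49), Ssr1 at 1.23-fold and Sec61a1 at 1.2-fold, and the other 8 together at 1.18-fold (1.13 to 1.24). Sec61g was the only 1 of the 9 past the fold, and 8.44% of all genes were higher past it in this class, with 1.44% lower. A count of 1 in 9 is near the share that was higher. Sec61g met the minimum of 50 CPM only in adip fl/fl-Villi-Cre, so it would not have been tested at its adip fl/fl level. Relative to the other 8 genes Sec61g was at 2.11-fold. The Paneth markers in these cells differed in the other direction, from 5732 to 3040 CPM, with 1 of the 5 tested higher past the fold and 3 lower, and their part in the result was not tested.

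Tuft-like cells, the chemosensory cells of the epithelium, had 42.1 and 109 CPM of Sec61g, a fold of 2.58 (1.64 to 4.20). No other of the 9 was past the fold, beside 6.96% of all genes, and a count of 1 in 9 is near that share. The other 8 were at 1.12-fold (1.01 to 1.23) there. In tuft-like and enteroendocrine-like cells Sec61g met the minimum of 50 CPM only in adip fl/fl-Villi-Cre. Enteroendocrine-like cells, the hormone-releasing cells, had 29.8 and 60.4 CPM of Sec61g, from 12 and 28 UMIs. The fold was 2.03, with an interval of 0.998 to 4.38 that holds 1. In that class Sec61a1 was past the fold as well, at 79.5 and 142 CPM or 1.79-fold (1.16 to 2.82), with 15.0% of all genes higher past the fold among 55 and 56 cells. A count of 2 in 9 is near that share. The other 8 genes together were at 1.15-fold (1.02 to 1.30).

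Sec61g differed in the same direction in the classes outside the epithelium. Goblet markers were also higher there in adip fl/fl-Villi-Cre, as given below. T cell-like cells had 54.7 and 93.7 CPM, a fold of 1.71 (1.34 to 2.20), and cycling T cell-like cells 59.8 and 146 CPM, a fold of 2.43 (1.82 to 3.29). The other 8 genes were at 1.03-fold (0.97 to 1.09) and 1.01-fold (0.95 to 1.08) there. Sec61g was the only 1 of the 9 past the fold in both, beside 7.43% and 3.17% of all genes. In T cell-like cells a count of 1 in 9 is near that share. Ssr3 was at 1.32-fold (1.08 to 1.61) in T cell-like cells and Ssr1 at 0.77-fold (0.61 to 0.98) in cycling T cell-like cells.

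Plasma-like cells had 68.9 CPM (29.7 to 136) and 231 CPM (169 to 309) of Sec61g, from 8 and 46 UMIs, a fold of 3.36 (1.57 to 8.24). One cell held 62.5% of the UMIs of adip fl/fl. The other 8 genes were at 0.98-fold (0.89 to 1.08), and 24.0% of all genes were higher past the fold in this small class, so Sec61g as the only 1 of 9 was below that share. Myeloid-like cells had 45.2 and 108 CPM, a fold of 2.38 (1.23 to 4.68), with Ssr2 lower past the fold at 95.4 and 60.8 CPM (0.64, with an interval of 0.31 to 1.22 that holds 1). The partners of Sec61g together were at 1.12-fold (0.99 to 1.26). In that class 18.3% of all genes were higher past the fold and 12.8% lower. Among 9 genes, 1 higher and 1 lower lie near these shares. Sec61g met the minimum of 50 CPM there only in adip fl/fl-Villi-Cre.

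**Figure D3:**
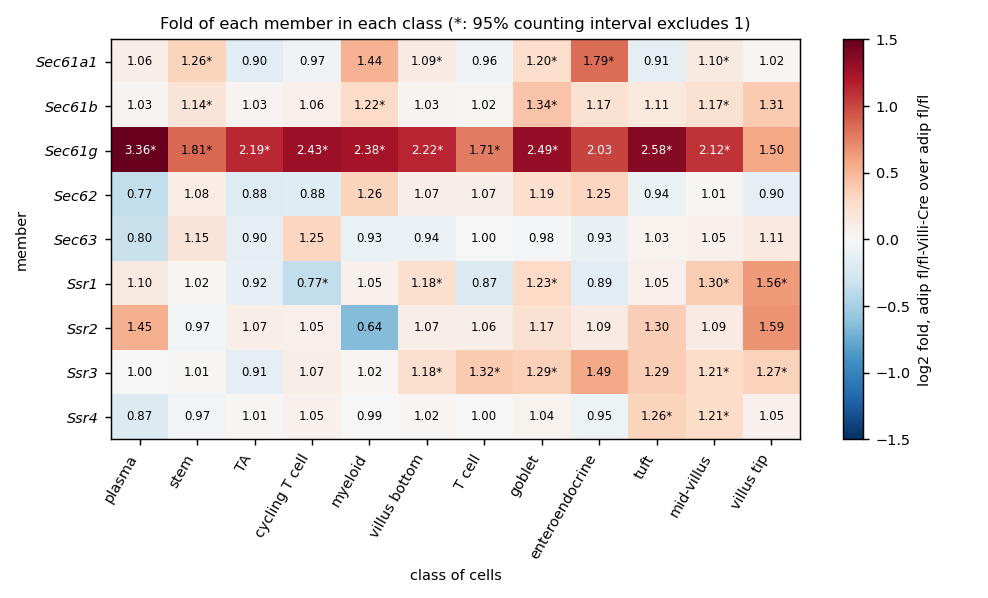
Fold of adip fl/fl-Villi-Cre over adip fl/fl for each of the 9 genes in each class. Colour gives the log2 fold, the printed number the fold, and an asterisk a 95% interval that excludes 1. The Sec61g row is above 1 in every class, from 1.5 to 3.36, while the other 8 rows run from 0.64 to 1.79.

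Over all kept cells Sec61g went from 922 UMIs (35.9 CPM) to 3650 UMIs (74.6 CPM), a fold of 2.08 (1.93 to 2.24), against 1.08 (1.06 to 1.09) for the other 8. To set this beside other genes, the lowest fold over the 11 classes with at least 40 cells per library was taken for the 3405 genes with at least 20 UMIs in each, a measure chosen after the values were seen. Sec61g came at rank 4, with folds from 1.496 in villus tip-like cells to 2.58. The 3 genes before it, which passed 1.5-fold in all 11 classes, were Mt1, a metallothionein, with a lowest fold of 2.23, Gm10076 with 1.93 and mt-Nd3, a mitochondrial complex I gene, with 1.89. Sec61g passed in 10 of the classes, as 9 of the genes (0.264%) did at least. Here the minimum of 50 CPM was not applied, so mid-villus-like cells count as passed for Sec61g. These 9 were Clca1, Spink4, Zg16, Muc2, Defa24, Mt1, Gm10076, Sec61g and mt-Nd3, of which the first 4 are goblet cell genes and Defa24 is a Paneth cell gene. Of all these genes 122 were above 1 in all 11 classes and 32 below 1.

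Its partners held lower places. Sec61b was above 1 in all 11 classes, with folds from 1.02 to 1.34 and rank 91. The lowest fold of Ssr4 was 0.95 (rank 292), of Ssr3 0.91 (rank 531), of Sec63 0.90 (rank 568), of Sec61a1 0.90 (rank 590), of Sec62 0.88 (rank 756), of Ssr1 0.77 (rank 1724) and of Ssr2 0.64 (rank 2764). The highest folds of these genes lay between 1.25 for Sec63 and 1.79 for Sec61a1.

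**Figure D4:**
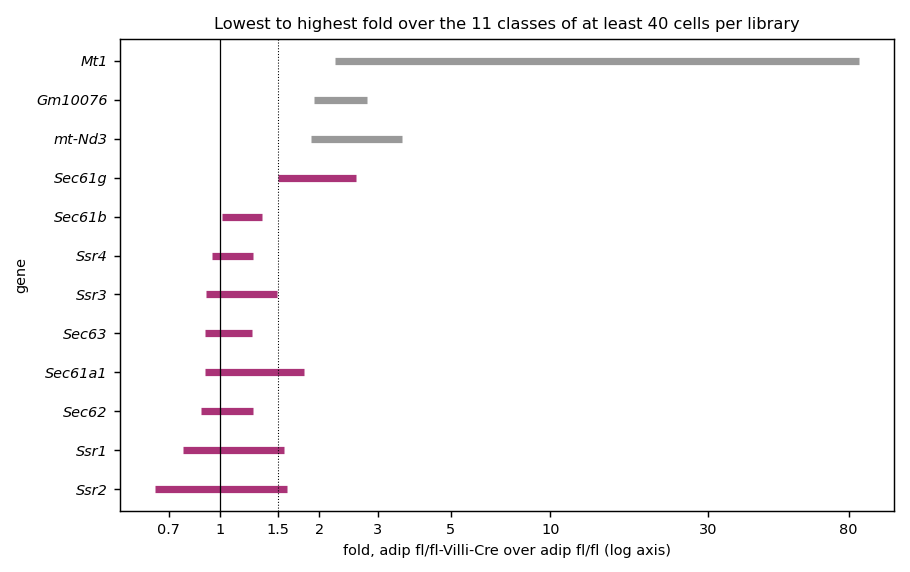
Lowest and highest fold of adip fl/fl-Villi-Cre over adip fl/fl over 11 classes, on a log axis, for each of the 9 genes and, in grey, for the 3 genes with a higher lowest fold. The range of Sec61g (1.5 to 2.58) begins above the lowest value of its 8 partners, the nearest being Sec61b at 1.02.

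The genes like Sec61g in level were ranked over points of both libraries, so its difference between them is part of that ranking. Of these genes, Gm10076 went from 149 to 326 CPM over all kept cells (2.18-fold). Tmem258, Lman2 and Dpm3, which also work in or beside the ER, were at 1.17, 1.12 and 1.16-fold.

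The pseudogene stood at about the same level in both libraries. Gm10177 had 474 and 907 UMIs over all kept cells, 18.5 CPM in both libraries (fold 1.01, 0.90 to 1.13), and 30.1 and 33.1 CPM in crypt-like cells (1.10, 0.83 to 1.46). Since the loci share sequence, both were also summed, an alternative chosen after the data were seen. The summed fold was 1.71 (1.61 to 1.82) over all kept cells, 1.69 (1.45 to 1.98) in crypt-like, 1.98 in goblet-like, 1.49 (1.2 to 1.85) in T cell-like, 1.51 in villus tip-like and 2.70 in plasma-like cells. The part of read placement in the difference was not tested.

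**Figure D5:**
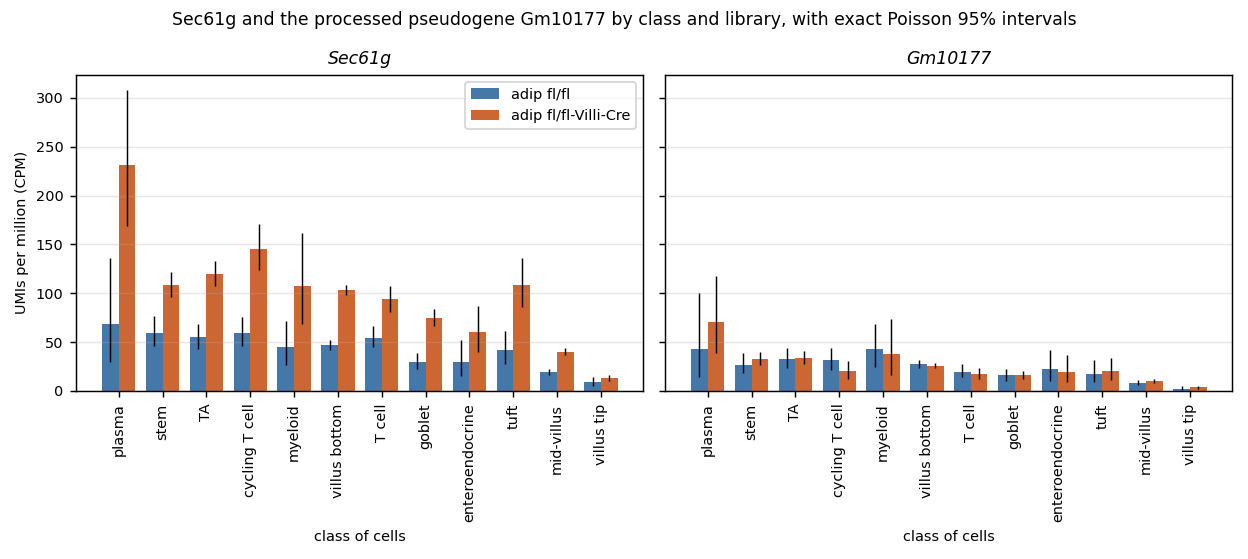
CPM of Sec61g and of its processed pseudogene Gm10177 in each class and library, as bars from 0 with exact Poisson 95% intervals. The bar of adip fl/fl-Villi-Cre is the taller one for Sec61g in every class, while over all kept cells Gm10177 is at 18.5 CPM in both libraries.

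Markers of other cell types also differed within classes. The summed level of 7 goblet markers went from 2078 to 4087 CPM in crypt-like cells, with 5 of the 6 markers tested past the fold, from 301 to 3854 CPM in T cell-like cells, with 6 of 6, and from 334 to 10984 CPM in myeloid-like cells. It also went from 179 to 9000 CPM in cycling T cell-like cells and from 484 to 4738 CPM in tuft-like cells. In enteroendocrine-like cells it went from 2896 to 13951 CPM, and in villus bottom-like cells from 196 to 1204 CPM. The remaining classes other than goblet-like cells were higher too. In goblet-like cells it was 326083 and 267560 CPM, with 0 of 7 past the fold. Further lists differed as well. In crypt-like cells Paneth markers went from 40.6 to 398 CPM (2 of 2 tested past the fold), villus tip markers from 443 to 773 CPM (3 of 4), T cell markers from 16.3 to 194 CPM and fibroblast and muscle markers from 0.837 to 117 CPM, while cycling markers went from 3211 to 2616 CPM (1 of 12 lower past the fold) and stem markers from 1662 to 2438 CPM. In T cell-like cells villus bottom markers went from 1285 to 2998 CPM (5 of 7), villus middle markers from 823 to 2555 CPM (9 of 9) and villus tip markers from 1329 to 2833 CPM (7 of 8). In plasma-like cells T cell markers went from 17.2 to 2867 CPM. The part of these transcripts in the Sec61g difference was not tested. In crypt-like cells with at most 1 UMI of Muc2, Fcgbp, Zg16 and Clca1, 30 and 26 cells, Sec61g had 58.4 and 77.4 CPM, 1.33-fold, with an interval of 0.74 to 2.36 that holds both 1 and the fold of all crypt-like cells.

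The rest of the secretory pathway was read from lists of its genes. In crypt-like cells 0 of 6 translocon partners, 0 of 6 genes of the signal recognition particle and its receptor, 0 of 5 signal peptidase genes, 0 of 11 oligosaccharyltransferase genes, 0 of 13 ER chaperones and folding enzymes and 0 of 3 ER stress regulators were past the fold in either direction. Of all genes tested in these cells 1.34% were higher past the fold and 0.547% lower, and 0 in lists this short lies near these shares. Tram1, which helps chains leave the channel, was at 123 and 115 CPM, and Tmco1 at 157 and 146 CPM. Srp9 and Srp14, which bind the RNA of the particle, were at 317 and 322 CPM and at 129 and 146 CPM. Among the enzymes that act on entering chains, Spcs2 and Sec11c of the signal peptidase were at 1.07-fold each, and Dad1 and Ostc of the oligosaccharyltransferase at 1.01 and 1.09-fold. The chaperone Hsp90b1 was at 998 and 1010 CPM and the disulfide isomerase P4hb at 511 and 529 CPM. Atf4 and Xbp1, transcription factors of the ER stress response, were at 1.08 and 0.89-fold.

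Since some coding transcripts of Sec61g are short (450 bases for the shortest, 1862 for the longest), 20 genes with short transcripts were set beside it. Most belong to the ribosome and the respiratory chain, and the list also held Tomm7, Romo1, Myl6 and Tmsb10. None was past the fold in crypt-like cells, beside 1.34% of all genes higher past it and 0.547% lower. There 19 of 20 were above 1 with a median log2 fold of 0.16, against -0.03 over all genes tested. The part of transcript length in the Sec61g difference was not tested. Rps29 went from 2782 to 3048 CPM and Rpl39 from 2257 to 2654 CPM (1.18-fold). In goblet-like cells 2 of 11 oligosaccharyltransferase genes (Ddost and Tmem258) and 1 of 13 chaperones (Canx) were higher past the fold. So were 3 of 20 short-transcript genes (Rpl39, Rps21 and Cox6c). Of all genes tested there 8.44% were, with a median log2 fold of 0.11. In plasma-like cells 7 of the 20 were, beside 24.0% of all genes.

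Between classes the signal peptidase and oligosaccharyltransferase lists stood above the median of all genes, as the 9 genes did. The other lists are not given here. Over villus tip-like cells, the median log2 fold in goblet-like cells was 1.85 and 1.90 for the 9 genes in adip fl/fl and adip fl/fl-Villi-Cre, 3.02 and 2.85 for signal peptidase and 2.37 and 2.58 for oligosaccharyltransferase, against 0.05 and 0.14 for all genes tested. In plasma-like cells it was 3.32 and 3.04, 6.17 and 5.71, and 4.37 and 3.50, against -1.49 and -1.02 for all genes. In crypt-like cells it was 2.68 and 2.69, 3.93 and 3.99, and 4.03 and 3.62, against 1.30 and 1.2.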

How the data were processed

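Small intestinal cells were captured with the 10x Genomics 3′ kit (V3), 1 library per genotype. The authors converted reads with bcl2fastq 5.0.1 and, per the file headers, counted UMIs with Cell Ranger 7.1.0, while the methods name another version of it. The submitters' processing notes name mm10. The deposited values are raw UMI counts per gene and barcode. Whether intronic reads were counted is not given in the sources used here.

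Kept cells (over 500 genes, under 25% mt- UMIs) went through Seurat 5.3.0 (R 4.3.3): LogNormalize to 10000, the 2000 most variable genes other than the 9 genes and the pathway genes, 20 components and Louvain clusters at resolution 0.8. Clusters with at least 5 stem or cycling markers and under 3 T cell markers, or at least 3 plasma markers, were split again at resolution 0.4, chosen after the clusters were seen. Markers counted from 2-fold over the remaining cells and 10 UMIs. A class name rested on at least 3 of them, or 5 for stem-like and TA-like, and was withheld where the 10 leading genes went against it. TA-like was also withheld from clusters with at least 3 goblet or 3 Paneth markers, a limit not set for stem-like. Unnamed were 123 and 303 cells. Among them were 0 and 56 cells of a crypt sub-cluster with 12 cycling, 3 goblet and 5 Paneth markers, which is left out of the crypt-like cells. With this sub-cluster added, an alternative chosen after the data were seen, the Sec61g fold in crypt-like cells stayed within its counting interval. Of the myeloid-like cells, 1 sub-cluster was led by Siglech. Doublet calls by Scrublet in scanpy 1.11.5 were not used, since it marked just 3 and 2 cells, and doublets stayed in. As an alternative, the 8% with the highest scores (246 and 444) were removed.

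Levels carry exact Poisson and folds exact conditional binomial 95% intervals (scipy 1.17.1, Python 3.11.15). UMI counting removes PCR copies, and intervals cover counting error only. Transcripts were compared with BLAST 2.17.0. Named pathway genes are the 2 of each list with the most UMIs, plus further subunits of the complexes of the 9 genes. The 5 genes most like Sec61g are those with the highest correlation among genes of at least 50 CPM on average. One gene that this rule selects is not reported here. The 9 genes, the lists and the comparisons were chosen with earlier results of these data known. The fold calculation was tested on simulated data. Alternatives changed the filters, clustering, naming, doublets, denominator, scaling and weight of cells.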

Additional observations from a re-analysis of the deposited data

Results flagged for a closer look

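The barcodes removed by the mt- limit, 4670 and 4263 with more than 500 genes, lie outside the comparisons above. They too held more Sec61g in adip fl/fl-Villi-Cre, at 6.69 and 11.2 CPM or 1.68-fold (1.28 to 2.22).

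Ssr1 differed in opposite directions between classes. It was at 0.77-fold (0.61 to 0.98) in cycling T cell-like cells and at 1.56-fold (1.11 to 2.25) in villus tip-like cells of adip fl/fl-Villi-Cre over adip fl/fl. With 1 library per genotype the difference between the classes was not tested.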

How the results depend on the processing

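No paired analysis was possible because each genotype has a single library and the labels carry no replicate numbers. Of 143 recomputed values of 9 results, 103 stayed within the counting interval of the value given, 40 left it and 0 turned a fold whose interval excluded 1. The Sec61g fold in goblet-like cells lay between 1.98 and 2.59 and in T cell-like cells between 1.48 and 2.15.

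In crypt-like cells with at most 1 goblet UMI, the Sec61g fold was 1.33 and that of the other 8 genes 0.90. The latter was 1.05 without the 8% highest Scrublet scores, 1.05 with cells named by their own marker score and, in alternatives chosen after the data were seen, 1.06 in stem-like cells alone and 0.97 in TA-like cells alone. In villus tip-like cells under 10% mt- UMIs, of which few were left, the Sec61g fold was 0.87, the other side of 1.

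The goblet-like over villus tip-like fold of the 9 genes was, in adip fl/fl and adip fl/fl-Villi-Cre, 3.90 and 4.29 with at least 1000 genes per cell, 2.73 and 2.50 under 10% mt- UMIs, 3.72 and 3.95 with mt- UMIs out of the total, 3.78 and 4.03 with ribosomal protein UMIs out as well and 3.32 and 3.74 as the mean of each cell's level. With goblet marker UMIs out of the total, chosen after the data were seen, it was 6.40 and 6.20. In adip fl/fl-Villi-Cre it was also 4.78 with 13 protein-coding mt- genes, 4.83 at resolution 0.4 and 4.11 when scaled to the median gene.

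The plasma-like over villus tip-like fold was 15.3 and 14.1 with at least 1000 genes, 10.1 and 7.85 under 10% mt- UMIs, 10.9 and 13.5 with 30 components, 11.9 and 15.6 without the highest Scrublet scores, 12.4 and 12.0 by marker score, 15.9 and 13.9 without mt- UMIs, 17.1 and 15.1 without ribosomal protein UMIs too, 54.1 and 34.3 when scaled to the median gene, and 37.2 and 30.2 without immunoglobulin UMIs, chosen after the data were seen. The causes were not tested. The 7 and 16 plasma-like cells, and the 19 and 80 UMIs of Sec61g in villus tip-like cells, limit what could be shown at this depth.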
